A study of Mus musculus with 56 samples.

Results

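TCF/LEF transcription factors were followed through β-catenin mutant mammary tumor cell lines. The family has 4 members in the mouse, Lef1, Tcf7, Tcf7l1 and Tcf7l2, which were selected by name and not by their values, and these are 4 of the 20314 genes in the expression table. All 4 passed the filter on low values and were among the 13754 genes tested. TCF/LEF proteins bind DNA through a high mobility group box and recruit β-catenin when the canonical Wnt pathway is active. Without β-catenin they hold target genes silent together with Groucho/TLE corepressors. Tcf7 and Lef1 are themselves known as Wnt target genes in many tissues, Tcf7l1 is known mainly as a repressor, and Tcf7l2 is known as the main family member of the intestinal epithelium.

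RNA-sequencing values covered 56 samples in 28 conditions, with 2 samples per condition. The cells were breast cancer cells of MMTV-PyMT mice (strain FVB/N), in which the MMTV promoter drives the polyoma middle T oncogene in the mammary epithelium. The 7 β-catenin genotypes were fl/fl, D164A/fl, D164A/-, ΔC/fl, ΔC/-, dm/fl and dm/-, with 8 samples each. The fl/fl cells carried floxed β-catenin alleles and no mutant allele, and the floxed alleles of the lines D164A/fl, ΔC/fl and dm/fl were accompanied by a mutant allele. D164A is a point mutation of β-catenin that prevents the binding of Bcl9 and Bcl9L. In the lines written with a minus sign the floxed allele had been removed. For D164A/-, the methods of the study describe infection with an adenovirus that carries Cre and GFP, followed by a sort for GFP. The labels do not spell out ΔC and dm. The Wnt3a experiment used 100 ng/ml over 3 days, the TGFβ experiment 2 ng/ml over 4 days, and each included untreated cells of its own. The methods of the study call the samples of a condition biological duplicates. A pair of independent fl/fl lines is described for a reporter assay, and the labels do not say which line a sample came from. How many lines the other genotypes had is not given in the sources used here, so genotype and line cannot be told apart. In the main fit, the p-values measure only the spread between the 2 samples of a condition, pooled for each gene over all 28 conditions. In bulk RNA, fewer cells that express a gene and less RNA per cell cannot be told apart.

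Ctnnb1, which encodes β-catenin, was at 532 to 3188 CPM in all samples, and gene counts do not separate its mutant from its floxed alleles. The libraries held 22.4 to 33.7 M reads on genes, with a median of 26.8 M. The deposited values are called CPM here, for reads per M reads of a scaled library size, and 1 read corresponded to 0.0306 to 0.0486 CPM. The luminal markers Krt8, Krt18, Epcam and Cdh1 were at 1 CPM or more in all 56 samples. T cells are a known source of Tcf7 and Lef1 RNA, and the 4 measured leukocyte markers Ptprc, Cd3d, Cd3e and Cd4 summed to at most 0.208 CPM in any sample. According to the methods, fibroblasts had been depleted from the cultures by selective trypsin treatment. The summed level of 5 fibroblast markers differed by genotype, with medians of 10.0 CPM in fl/fl, 63.1 CPM in D164A/fl, 87.1 CPM in D164A/-, 113 CPM in ΔC/fl, 9.79 CPM in ΔC/-, 126 CPM in dm/fl and 7.26 CPM in dm/- cells. Of these, Pdgfra, the PDGF receptor α, was at 1 CPM or more in all 56 samples. Col1a1 reached 1 CPM in 42 samples, was at 0 in none and had a maximum of 70.9 CPM. Col3a1 reached 1 CPM in 19 samples, was at 0 in 28 and had a maximum of 184 CPM. Col1a2 and Dcn reached 1 CPM in 16 and 6 samples and were at 0 in 13 and 20. The basal markers Krt5, Krt14, Trp63 and Acta2 summed to medians of 327 CPM in fl/fl, 710 CPM in D164A/fl, 263 CPM in D164A/-, 554 CPM in ΔC/fl, 34.9 CPM in ΔC/-, 655 CPM in dm/fl and 119 CPM in dm/- cells. The part of these differences in the results below was not tested. A gene was counted as called at an adjusted p of at most 0.05 (limma, Benjamini-Hochberg over all genes tested) and a log2 fold change of at least 1 in either direction on the log2(CPM + 1) scale.

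The positions of the members were taken from RefSeq on GRCm38.p6. Lef1 (Entrez 16842) lies at chr3:131110297-131224357, Tcf7 (21414) at chr11:52246527-52283383, Tcf7l1 (21415) at chr6:72626371-72789045 and Tcf7l2 (21416) at chr19:55741797-55933659. The RefSeq table lists 9 promoters for the 4 genes. The TCF/LEF recognition motif was searched on both strands in the 250 bases before each start, as CTTTGA (reverse complement TCAAAG) and as CTTTGT (reverse complement ACAAAG), where matches on opposite strands can share an end base. Of all 32851 promoters, 13.8% held CTTTGA and 16.5% held CTTTGT. A match to either motif occurred in 3 of the 9 windows. The share of all promoters with either motif was not computed, so this count has no matching background. The first Lef1 window and the internal Lef1 window are printed because Lef1 had no read in fl/fl cells and responded to TGFβ in ΔC cells, and the Tcf7l2 windows because Tcf7l2 also responded to TGFβ. Capitals mark a motif match, and all windows are on the plus strand.
Lef1, chr3:131110047-131110296: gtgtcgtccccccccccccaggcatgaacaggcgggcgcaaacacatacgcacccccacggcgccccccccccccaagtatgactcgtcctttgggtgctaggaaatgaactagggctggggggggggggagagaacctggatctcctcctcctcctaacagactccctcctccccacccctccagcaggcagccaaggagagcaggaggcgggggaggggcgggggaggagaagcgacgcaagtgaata
Lef1, chr3:131156044-131156293: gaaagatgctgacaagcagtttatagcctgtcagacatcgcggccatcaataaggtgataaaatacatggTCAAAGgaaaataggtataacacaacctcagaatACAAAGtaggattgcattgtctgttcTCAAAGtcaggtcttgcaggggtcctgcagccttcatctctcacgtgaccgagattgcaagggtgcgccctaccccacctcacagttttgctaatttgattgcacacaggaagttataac
Tcf7l2, chr19:55741560-55741809: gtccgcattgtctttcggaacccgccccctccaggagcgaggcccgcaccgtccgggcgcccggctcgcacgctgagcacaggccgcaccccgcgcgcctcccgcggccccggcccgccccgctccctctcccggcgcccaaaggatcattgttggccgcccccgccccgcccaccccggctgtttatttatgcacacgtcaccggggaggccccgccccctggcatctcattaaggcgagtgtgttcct
Tcf7l2, chr19:55895071-55895320: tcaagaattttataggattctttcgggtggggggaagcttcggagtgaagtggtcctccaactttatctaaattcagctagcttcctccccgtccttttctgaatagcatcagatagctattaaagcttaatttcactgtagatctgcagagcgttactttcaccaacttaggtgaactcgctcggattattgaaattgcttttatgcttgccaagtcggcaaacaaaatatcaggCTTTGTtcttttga
The internal Lef1 window held matches at 180, 146 and 120 bases before the start. The internal Tcf7l2 window held 1 match at 14 bases before the start, and the only Tcf7l1 window held 1 at 28 bases before the start. Neither Tcf7 window held a match. A match is a description of the letters and not a binding site, and binding was not measured here.

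Tcf7 and Tcf7l2 carried most of the family's RNA in these cells. To compare genes, CPM values were divided by the length of the merged exons, which is 3.51 kb for Lef1, 2.63 kb for Tcf7, 3.08 kb for Tcf7l1 and 4.43 kb for Tcf7l2. Per kb, Tcf7 was the highest member in 38 of 56 samples, Tcf7l2 in 17, Tcf7l1 in 1 and Lef1 in 0. With the longest transcript as the length, these counts were 36, 19, 1 and 0. Tcf7 was the highest member in all 8 samples each of D164A/fl and D164A/- cells and in 7 of 8 of both ΔC genotypes. Tcf7l2 led in 6 of 8 dm/fl and 5 of 8 fl/fl samples. The share of Tcf7 in the summed level per kb ranged from 25.7% to 78.7% over the samples, that of Tcf7l2 from 11.9% to 57.8%, that of Tcf7l1 from 0.665% to 35.8% and that of Lef1 from 0% to 13.4%.

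**Figure D1:**
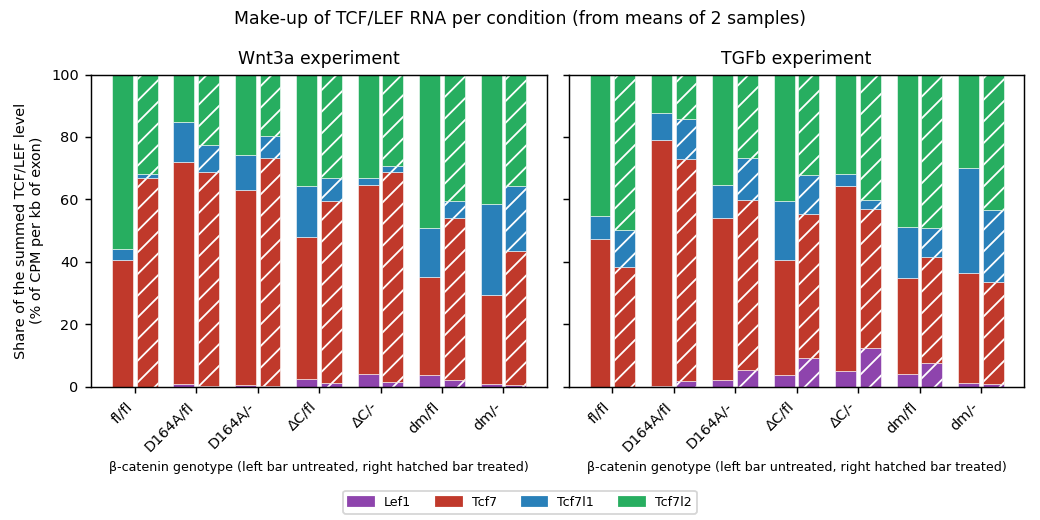
Stacked bars of the share of each TCF/LEF gene in the summed family level (percent of CPM per kb of exon) for the 7 genotypes, from the mean of 2 samples, with untreated cells as plain and treated cells as hatched bars. Wnt3a-treated fl/fl cells had 66.8% Tcf7 against 40.7% without Wnt3a, and Lef1 reached its highest share, 12.3%, in TGFβ-treated ΔC/- cells.

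The levels of untreated cells differed between genotypes, and the lowest levels of Lef1 and Tcf7l1 were found in fl/fl cells. No read of Lef1 was found in any of the 8 fl/fl libraries, which at 3 reads per library allows up to 0.0946 to 0.135 CPM and covers counting error only. All 48 other libraries had at least 1 Lef1 read. Over the 4 untreated samples of both experiments, Lef1 medians followed the order ΔC/- (2.47 CPM), ΔC/fl (1.70 CPM), dm/fl (1.64 CPM), D164A/- (1.03 CPM), dm/- (0.345 CPM), D164A/fl (0.333 CPM) and fl/fl (0 CPM). The sample ranges of all neighbours in this order overlapped, apart from D164A/fl and fl/fl. Against 3 reads per fl/fl library, the mean of untreated ΔC/- cells was at least 20.3-fold higher in the Wnt3a and at least 27.1-fold higher in the TGFβ experiment. For dm/fl cells these bounds were 16.1-fold and 14.04-fold. For dm/- cells they were 2.00-fold and 3.90-fold, and for D164A/fl cells 7.93-fold and 1.28-fold. These bounds leave out the counting error of the mutant samples. Untreated dm/- samples of the Wnt3a experiment had 8 and 3 reads, and untreated D164A/fl samples of the TGFβ experiment had 3 and 6.

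Tcf7 was highest in the D164A lines. Its untreated medians were 44.2 CPM in D164A/fl, 33.2 CPM in D164A/-, 25.8 CPM in ΔC/-, 17.5 CPM in ΔC/fl, 9.40 CPM in dm/fl, 8.18 CPM in fl/fl and 7.79 CPM in dm/- cells. The ranges of D164A/- (29.3 to 46.8 CPM), ΔC/- (24.1 to 27.2 CPM), ΔC/fl (13.9 to 23.5 CPM) and dm/fl (7.69 to 12.9 CPM) did not overlap their next neighbours among these 4, whereas those of D164A/fl and D164A/- overlapped, as did those of dm/fl, fl/fl and dm/-. Untreated cells of one genotype also differed between the experiments. In D164A/fl cells, Tcf7 was at 55.7 and 53.5 CPM in the Wnt3a experiment and at 28.7 and 34.9 CPM in the TGFβ experiment.

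Tcf7l1 separated the genotypes in another way. It was at 0.946 and 0.307 CPM in untreated fl/fl cells of the Wnt3a experiment and at 1.41 and 2.28 CPM in those of the TGFβ experiment. In ΔC/- cells it was at 0.745 and 1.14 CPM and at 2.02 and 2.11 CPM. Within each experiment these samples lay below the untreated samples of the other 5 genotypes, which ranged from 2.21 CPM in a dm/fl sample to 16.3 CPM in a D164A/fl sample. Over both experiments, dm/fl overlapped fl/fl cells, since 1 fl/fl sample was at 2.28 CPM.

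Tcf7l2 had the narrowest relative range over the 56 samples, from 7.89 to 58.4 CPM. Its untreated medians ran from 12.9 CPM in D164A/fl to 31.7 CPM in D164A/- cells, and only ΔC/- (21.9 to 25.8 CPM) and fl/fl cells (13.99 to 17.1 CPM) were neighbours whose ranges did not overlap. The lowest Tcf7l2 levels, 7.89 and 8.91 CPM, were those of untreated D164A/fl cells of the TGFβ experiment, while this genotype had 17.0 and 22.4 CPM in the Wnt3a experiment.

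**Figure D2:**
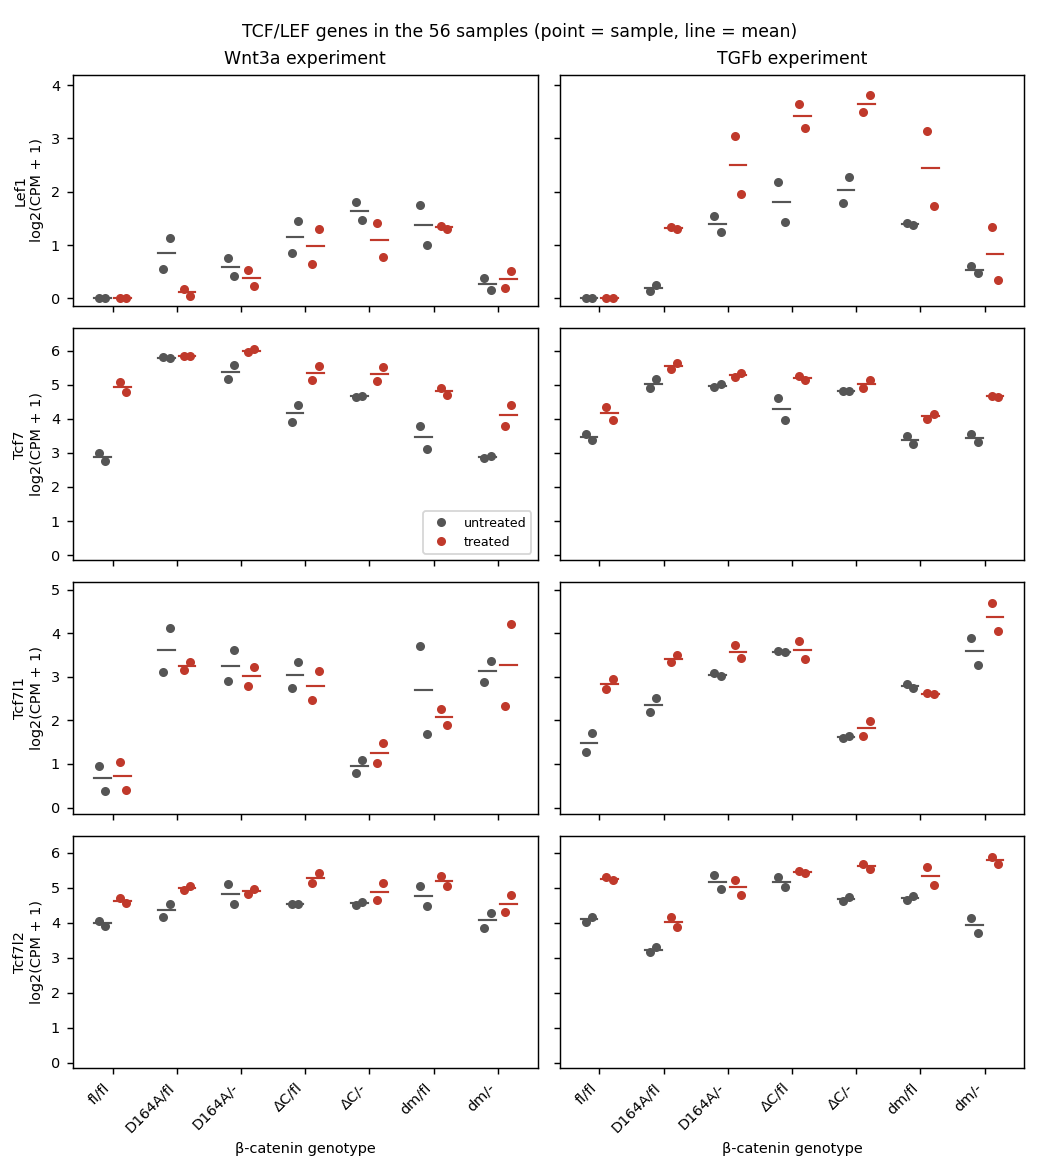
Levels of the 4 genes as log2(CPM + 1) in each of the 56 samples (points) with the mean of 2 samples (lines), by genotype, with the Wnt3a experiment on the left and the TGFβ experiment on the right. Lef1 stayed at 0 in all fl/fl samples, and Tcf7l1 was lowest in untreated fl/fl and ΔC/- cells.

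Tested against untreated fl/fl cells of the same experiment, 25 of 48 member values were called, all of them higher in the mutant cells. Over all genes, 18.3% of such tests were called, 9.75% as higher. Tcf7l1 was called in 9 of 12 tests, Lef1 and Tcf7 in 7 each and Tcf7l2 in 2. The largest difference was that of Tcf7l1 in D164A/fl cells of the Wnt3a experiment, with 7.69 and 16.3 CPM against 0.946 and 0.307 CPM (log2 fold change 2.94, SE 0.47, limma adjusted p = 1.03e-05). In the TGFβ experiment D164A/fl cells had 3.54 and 4.73 CPM of Tcf7l1, and the difference was 0.86 (SE 0.47, limma adjusted p = 0.237). Tcf7 was 2.91 higher on the log2 scale in D164A/fl (SE 0.25, limma adjusted p = 3.06e-11) and 2.49 higher in D164A/- cells (limma adjusted p = 1.04e-09) of the Wnt3a experiment, and 1.56 and 1.51 higher in the TGFβ experiment (limma adjusted p = 1.1e-05 and 1.22e-05). The called Tcf7l2 values were those of D164A/- (1.06, SE 0.25, limma adjusted p = 0.00126) and ΔC/fl cells (1.05, SE 0.25, limma adjusted p = 0.00183) of the TGFβ experiment. Of the 25 calls, 8 were lost when 1 of the 4 libraries compared was left out, namely Lef1 in ΔC/fl and dm/fl and Tcf7l1 in dm/fl cells of the Wnt3a experiment, and Lef1, Tcf7l1 and Tcf7l2 in D164A/-, Tcf7l2 in ΔC/fl and Tcf7l1 in dm/fl cells of the TGFβ experiment. Both Tcf7l2 calls were lost without untreated fl/fl replicate 1 (0.99 and 0.98), and each was lost without replicate 1 of its own mutant (0.86 and 0.91). With only the samples compared in the fit, Tcf7 in ΔC/fl, Lef1 in dm/fl and Tcf7l1 in dm/fl cells of the Wnt3a experiment lost the call (limma adjusted p = 0.0921, 0.188 and 0.334). Without the filter on low values, Tcf7l1 in dm/fl cells of the TGFβ experiment did (limma adjusted p = 0.0677). All comparisons within an experiment share the 2 untreated fl/fl samples. With the trend of the values with the GC content of the transcripts removed, 3 of these calls fell under the fold threshold, namely Tcf7 in ΔC/fl (0.90) and Tcf7l1 in dm/fl cells (0.67) of the Wnt3a experiment and Tcf7l2 in D164A/- cells of the TGFβ experiment (0.96). Over all genes, the rank correlation of these differences with GC content ran from 0.30 (ΔC/-) to 0.65 (dm/fl) in the Wnt3a experiment. In the TGFβ experiment it ran from -0.34 (D164A/-) to 0.09 (ΔC/-).

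Untreated lines without and with the floxed allele were compared for the same mutant allele. Here 5 of 24 member values were called, against 12.1% over all genes. Tcf7l2 of D164A/- cells in the TGFβ experiment was at 40.4 and 30.1 CPM against 7.89 and 8.91 CPM in D164A/fl cells, without overlap (log2 fold change 1.93, SE 0.25, limma adjusted p = 3.25e-07). In the Wnt3a experiment the same genotypes had 33.3 and 22.2 CPM against 17.0 and 22.4 CPM, which overlapped (0.46, SE 0.25, limma adjusted p = 0.615). Tcf7l1 was lower in ΔC/- than in ΔC/fl cells in both experiments. It was at 0.745 and 1.14 CPM against 5.67 and 9.13 CPM in the Wnt3a experiment (-2.09, SE 0.47, limma adjusted p = 0.00235), a call that was lost without ΔC/fl replicate 2 (-1.79, limma adjusted p = 0.0704). In the TGFβ experiment it was at 2.02 and 2.11 CPM against 11.1 and 10.8 CPM (-1.96, SE 0.47, limma adjusted p = 0.00285). Between the deleted and floxed lines with D164A or dm, the Tcf7l1 differences lay between -0.36 and 0.80 and were not called. Lef1 was 1.198 higher in D164A/- than D164A/fl cells of the TGFβ experiment (limma adjusted p = 0.0149) and 1.11 lower, as a log2 fold change of -1.11, in dm/- than dm/fl cells of the Wnt3a experiment (limma adjusted p = 0.0257). The first of these Lef1 calls was lost without D164A/- replicate 1 (1.05, limma adjusted p = 0.142) or either D164A/fl sample (1.14 and 1.25, limma adjusted p = 0.103 and 0.0549). The second was lost without dm/fl replicate 1 (-0.74, limma adjusted p = 0.274) or either dm/- sample (limma adjusted p = 0.0763 and 0.128). When only the samples compared entered the fit, the Lef1 dm call and the Tcf7l1 call of the Wnt3a experiment were also lost (limma adjusted p = 0.364 and 0.0944).

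Wnt3a raised Tcf7. In fl/fl cells, Tcf7 was at 7.003 and 5.79 CPM without and at 32.5 and 26.8 CPM with Wnt3a, with no overlap (log2 fold change 2.05, SE 0.25, limma adjusted p = 5.61e-06). In ΔC/fl cells it went from 13.9 and 20.4 CPM to 33.8 and 46.2 CPM (1.18, SE 0.25, limma adjusted p = 0.024), and in dm/fl cells from 12.9 and 7.69 CPM to 28.8 and 25.2 CPM (1.34, SE 0.25, limma adjusted p = 0.00289). These 3 were the only called ones of 28 member values for Wnt3a, against 0.862% of tests over all genes. All 3 calls were lost when only the 4 samples compared entered the fit (limma adjusted p = 0.551, 1.0 and 0.906, in the order above). The call of ΔC/fl was also lost without its untreated replicate 1 (0.92, limma adjusted p = 0.373) or its treated replicate 2 (0.97, limma adjusted p = 0.691).

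In the other genotypes both Wnt3a-treated samples also lay above both untreated samples, so that Tcf7 was higher in 7 of 7 genotypes, which held for 0.0436% of the genes tested. In dm/- cells, Tcf7 was at 6.27 and 6.56 CPM without and 12.8 and 20.4 CPM with Wnt3a (1.21, SE 0.25, limma adjusted p = 0.24). In these cells 0 of the 13754 genes tested were called for Wnt3a with limma or with edgeR, where 29 and 39 genes had an unadjusted p under 0.05. Both counts lie far under a share of 0.05 of the genes tested. The p-values of this comparison were thus conservative, and the 0 calls do not show that a response was absent. The Tcf7 value of dm/- cells was not called in the main fit. It was called without the filter on low values (limma adjusted p = 0.0288) and without treated replicate 1 (1.53, limma adjusted p = 0.0275). D164A/- cells had 34.9 and 46.8 CPM and then 60.6 and 65.1 CPM (0.62, SE 0.25, limma adjusted p = 0.745), and ΔC/- cells had 24.1 and 24.6 CPM and then 33.4 and 44.96 CPM (0.65, SE 0.25, limma adjusted p = 1.0). In D164A/fl cells, whose untreated level was the highest of all, Tcf7 hardly differed, with 55.7 and 53.5 CPM without and 56.7 and 56.2 CPM with Wnt3a (0.05, SE 0.25).

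The mean Wnt3a response of Tcf7 over the 7 genotypes was 1.02 (SE 0.09, limma adjusted p = 3.59e-09), and it was the only called member, against 0.494% of all genes. Removing the GC trend left this mean at 0.99 (limma adjusted p = 2.97e-10), under the fold threshold. Over all genes, the Wnt3a response correlated with transcript GC content with a rank correlation between -0.75 in dm/fl and 0.77 in ΔC/- cells, as a description across genes. The Tcf7 response in fl/fl cells was 1.61 and that in dm/fl cells 1.79 with this trend removed, and both remained called.

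Axin2, the negative feedback inhibitor commonly used to read out canonical Wnt activity, served as the check of the treatment. It rose in 6 genotypes and had a mean response of 4.26 (SE 0.19, limma adjusted p = 1.9e-17). In dm/- cells Axin2 was at 0 and 0 CPM without and at 0 and 0.0791 CPM with Wnt3a, while Tcf7 was higher in both treated samples. In D164A/fl cells the pattern was the opposite, with Axin2 at 1.18 and 1.66 CPM without and 154 and 149 CPM with Wnt3a beside a flat Tcf7. In ΔC/- cells Axin2 reached 4.59 and 17.4 CPM, less than in the other genotypes with an increase.

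**Figure D3:**
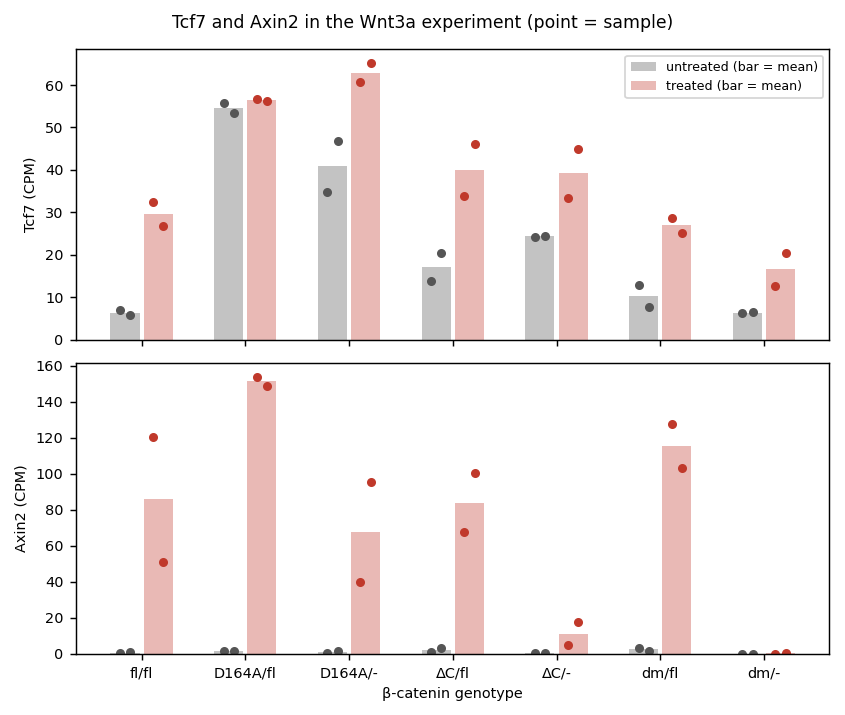
Tcf7 (top) and Axin2 (bottom) in CPM in the 28 samples of the Wnt3a experiment by genotype, with points for samples and bars for means of 2 samples. Tcf7 was higher in both treated samples of every genotype, with the smallest difference in D164A/fl cells, and Axin2 stayed at or near 0 CPM in dm/- cells.

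The other members did not pass for Wnt3a in any genotype. Tcf7l2 had both treated samples above both untreated samples in 6 of 7 genotypes, which held for 0.218% of genes, with log2 fold changes between 0.34 and 0.75 in these 6. In D164A/- cells the samples overlapped (0.08). Its mean response was 0.48 (SE 0.09, limma adjusted p = 0.000941), under the fold threshold. In fl/fl cells it went from 15.6 and 13.99 CPM to 25.1 and 22.5 CPM. Lef1 was at 0.472 and 1.19 CPM without and 0.131 and 0.0351 CPM with Wnt3a in D164A/fl cells, without overlap and with 4 and 1 reads in the treated samples (-0.73, SE 0.36, limma adjusted p = 0.407). This value was called with a pseudocount of 0.1 (-2.28, limma adjusted p = 0.0247) and with edgeR on whole reads (-3.23, adjusted p = 0.0498). In ΔC/- cells both treated samples were also lower, at 1.67 and 0.723 CPM against 2.48 and 1.77 CPM (-0.53, SE 0.36), which was not called. Lower values in at least 2 genotypes were found for 23.2% of genes. Tcf7l1 had overlapping treated and untreated samples in all 7 genotypes. Its untreated dm/fl samples lay far apart at 12.2 and 2.21 CPM, and the dm/fl response was -1.64 (limma adjusted p = 0.0085) without the lower of them, replicate 2, and 0.40 without replicate 1, against -0.62 with both.

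With TGFβ, Lef1 was higher in both treated samples in 5 of 7 genotypes, the exceptions being dm/- and fl/fl, and it was called in both ΔC lines. Higher values in at least 5 genotypes were found for 11.7% of genes. In ΔC/fl cells Lef1 was at 3.56 and 1.68 CPM without and 11.4 and 8.21 CPM with TGFβ (log2 fold change 1.61, SE 0.36, limma adjusted p = 0.0023). In ΔC/- cells it was at 2.45 and 3.87 CPM and then at 10.2 and 13.1 CPM (1.62, SE 0.36, limma adjusted p = 0.00285). D164A/fl cells went from 0.106 and 0.193 CPM to 1.52 and 1.48 CPM (1.12, SE 0.36, limma adjusted p = 0.076). In D164A/- cells Lef1 was at 1.93 and 1.37 CPM and then at 7.27 and 2.90 CPM (1.11, SE 0.36, limma adjusted p = 0.0796), and in dm/fl cells at 1.68 and 1.59 CPM and then at 7.82 and 2.33 CPM (1.04, SE 0.36, limma adjusted p = 0.0554). These 3 values were not called. Each ΔC call was lost without 1 of 2 libraries, namely treated replicate 1 (1.40, limma adjusted p = 0.0693) or untreated replicate 2 (1.23, limma adjusted p = 0.101) of ΔC/fl, and untreated replicate 1 (1.37, limma adjusted p = 0.0852) or treated replicate 2 (1.45, limma adjusted p = 0.0632) of ΔC/-. Neither ΔC call held with edgeR on whole reads (adjusted p = 0.105 and 0.108), where the D164A/fl value was called instead (3.28, adjusted p = 0.0292). The ΔC/- call was also lost with a pseudocount of 0.1 (1.88, limma adjusted p = 0.0558), and the ΔC/fl call when only the samples compared entered the fit (limma adjusted p = 0.0539), where D164A/fl was called (limma adjusted p = 0.0105). With median-of-ratios scaling the dm/fl value was called (1.07, limma adjusted p = 0.04998). The mean response was 0.97 (SE 0.14, limma adjusted p = 1.14e-06), just under the fold threshold, and with edgeR on whole reads, in a fit that includes fl/fl cells without a read, it was 1.61 with an adjusted p of 1.0. With a pseudocount of 0.1 the limma mean was 1.40 (adjusted p = 1.75e-05) and was called. In fl/fl cells no Lef1 read was found with TGFβ either.

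Tcf7l2 rose with TGFβ in fl/fl and dm/- cells. It was at 15.3 and 17.1 CPM without and 38.5 and 36.0 CPM with TGFβ in fl/fl cells (1.16, SE 0.25, limma adjusted p = 0.00158). In dm/- cells it went from 16.7 and 12.0 CPM to 58.4 and 50.3 CPM (1.86, SE 0.25, limma adjusted p = 2.28e-06). In D164A/- cells the samples overlapped, with 40.4 and 30.1 CPM without and 36.2 and 26.9 CPM with TGFβ (-0.15, SE 0.25). In the other genotypes both treated samples were higher, with log2 fold changes of 0.29 to 0.93, and higher values in at least 6 genotypes were found for 6.21% of genes. The mean response was 0.79 (SE 0.09, limma adjusted p = 5.36e-08).

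Tcf7 was higher in both TGFβ-treated samples in 7 of 7 genotypes, as were 2.47% of genes. It was called in dm/- cells, where it went from 10.8 and 9.02 CPM to 24.5 and 23.9 CPM (1.21, SE 0.25, limma adjusted p = 0.00112). The mean response of Tcf7 was 0.65 (SE 0.09, limma adjusted p = 1.58e-06). Tcf7l1 was not called in any genotype. Its largest value was that of fl/fl cells, with 1.41 and 2.28 CPM without and 5.59 and 6.69 CPM with TGFβ (1.34, SE 0.47, limma adjusted p = 0.0912). That value was called with the GC trend removed (1.34, limma adjusted p = 8.65e-05) and when only the samples compared entered the fit (limma adjusted p = 0.0415). In D164A/fl cells Tcf7l1 went from 3.54 and 4.73 CPM to 9.09 and 10.3 CPM (1.07, SE 0.47, limma adjusted p = 0.268), which was called when only the samples compared entered the fit (limma adjusted p = 0.0164). The mean Tcf7l1 response was 0.54 (SE 0.18, limma adjusted p = 0.0208).

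In all, 5 of 28 member values were called for TGFβ, against 6.35% of tests over all genes, and 0 of 4 for the mean response with limma or edgeR, against 4.88% with limma. The mean TGFβ response was above 0 with an adjusted p under 0.05 for all 4 members and under the fold threshold for each. The median of this response over the 4 members was 0.72, beside -0.02 over all genes tested. The share of all genes with an adjusted p under 0.05 alone was not computed, so the count of all 4 members has no matching background.

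**Figure D4:**
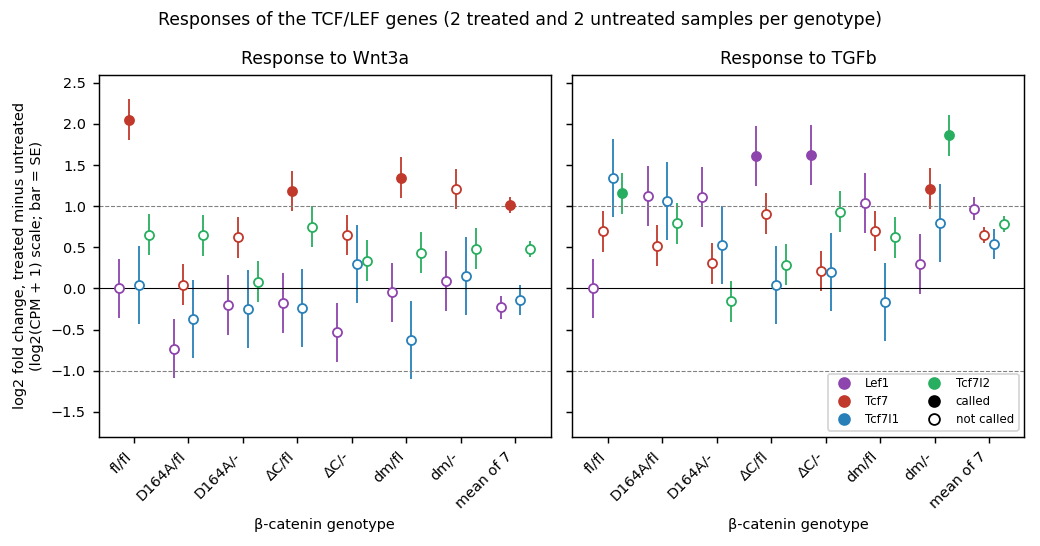
Log2 fold changes of the 4 genes for Wnt3a (left) and TGFβ (right) by genotype and as the mean of 7 genotypes, with SE bars from limma on log2(CPM + 1), filled points for called values and dashed lines at the fold threshold. Tcf7 holds all called Wnt3a values, and Lef1, Tcf7 and Tcf7l2 share the 5 called TGFβ values of single genotypes.

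The responses were also compared between genotypes. The Wnt3a response of Tcf7 was smaller in D164A/fl than in fl/fl cells by a log2 difference of -2.004 (SE 0.35, limma adjusted p = 0.000346), which was not called when only the samples compared entered the fit (limma adjusted p = 0.114). The TGFβ response of Tcf7l2 was smaller in D164A/- than in fl/fl cells (-1.31, SE 0.35, limma adjusted p = 0.0213). These were the 2 called of 48 member values against fl/fl, beside 1.85% over all genes. The Wnt3a response of Tcf7 in dm/- cells differed from that of fl/fl cells by -0.84 (SE 0.35, limma adjusted p = 1.0), and a difference in Lef1 response to TGFβ from fl/fl cells, which had no reads, reached 1.62 in ΔC/- cells (SE 0.51, limma adjusted p = 0.111). Between cells with a deleted and a floxed second allele, the TGFβ response of Tcf7l2 was larger in dm/- than in dm/fl cells (1.24, SE 0.35, limma adjusted p = 0.0215), the only called of 24 member values beside 2.14% over all genes. In dm/fl cells Tcf7l2 was at 24.2 and 26.0 CPM without and 47.2 and 32.5 CPM with TGFβ. Both Tcf7l2 differences lost the call with the GC trend removed (limma adjusted p = 0.142 and 0.0614) and when single libraries were left out. For the difference to fl/fl this held for untreated replicate 1 or either treated sample of fl/fl, and untreated replicate 1 or treated replicate 2 of D164A/- cells (limma adjusted p between 0.0578 and 0.175). For dm cells it held for either untreated sample or treated replicate 2 of dm/fl, and treated replicate 1 or untreated replicate 2 of dm/- cells (limma adjusted p between 0.0643 and 0.175).

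The partners of the family were examined as lists taken from textbook knowledge. The mean responses of all genes tested were called in 0.494% for Wnt3a and 4.88% for TGFβ. Of 12 co-activators of the TCF/β-catenin complex, such as β-catenin, Bcl9, Bcl9l, Pygo1 and Pygo2, 0 were called with limma or edgeR in the mean response to Wnt3a or TGFβ, with median log2 fold changes of 0.04 and 0.07 and with 1 and 3 at an unadjusted limma p under 0.05. Of 14 measured repressors and inhibitors, such as the TLE corepressors, 0 were called with limma in either mean response, with medians of -0.03 and 0.13 and with 1 and 3 at an unadjusted p under 0.05. edgeR called 1 of them, the SOX factor gene Sox7, in both, named here after its values were seen. For the counts at an unadjusted p under 0.05 the share of all genes is not given here, so they have no matching background. Of 11 tested genes induced through TCF/LEF in many tissues, 2 were called as higher with Wnt3a, namely Axin2 and the Wnt deacylase Notum (1.60, SE 0.30, limma adjusted p = 0.000504). Notum was also the only one called for TGFβ, as lower (-2.20, SE 0.30, limma adjusted p = 4.49e-07). As a check of the TGFβ treatment, 5 of 7 genes known to be induced by TGFβ were called as higher in the mean TGFβ response. Among them were Fn1, which encodes fibronectin (2.80, SE 0.24), Ltbp2 (2.05, SE 0.20) and the inhibitory Smad7 (1.32, SE 0.12). In single genotypes the count of the 7 ran from 2 in ΔC/fl cells to 5 in D164A/fl, ΔC/- and dm/- cells. Among the marker lists of other cell types, the basal factor gene Trp63 was lower in this mean (-1.88, SE 0.18), and the smooth muscle actin gene Acta2 (1.199, SE 0.18), the collagen gene Col1a1 (2.27, SE 0.21) and the endothelial cadherin gene Cdh5 (1.21, SE 0.10) were higher, all called with limma. By list, 1 of 5 fibroblast markers (median 0.11) and 1 of 2 endothelial markers (median 0.58) were called in this mean. Of 4 basal markers 1 was called as higher and 1 as lower (median -0.66), and of 4 luminal markers 0 were called (median 0.05). The part of these markers in the TGFβ values of the family was not tested.

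Over the 28 condition means on the log2(CPM + 1) scale, the members followed each other weakly. The highest Pearson correlation between members was 0.52 for Lef1 and Tcf7l2, and that of Tcf7 with Axin2 was 0.44. The genes most like Lef1 were Vta1 (0.86), Pepd (0.83) and Tmem19 (0.82). For Tcf7 they were Gtf2i (0.79), Faim2 (0.78) and Ric3 (0.77). For Tcf7l1 they were Kif7 (0.88), Pou6f1 (0.88) and Cacna1c (0.86), and for Tcf7l2 they were Vasn (0.82), Slc29a3 (0.82) and Smarce1 (0.80). The conditions share cell lines and scaling, so these correlations are a description without a test.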

How the data were processed

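RNA of 56 cell culture samples was analysed. According to the methods of the study, the authors prepared stranded poly(A) libraries, mapped reads to mm10 with STAR keeping unique hits, and counted reads starting in RefSeq exons with qCount of QuasR. The strand setting is not given in the sources used here, and Tcf7 overlaps Skp1 and Tcf7l1 overlaps Gm15401 in the annotation, so reads in the shared stretches are uncertain. The deposited values are an expression signal, read counts divided by a scaled library size. All columns were whole multiples of their smallest value above 0 (100% of values, tolerance 0.001 reads), so whole reads were recovered. They did not sum to a common total, so the unit was recorded as signal, whereas the planned design spoke of CPM, and the planned test was kept.

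Symbols were matched for 20261 of 20314 Entrez identifiers. Values were tested as log2(CPM + 1) with limma 3.58.1 in R 4.3.3, with 1 coefficient per condition (28), eBayes with a trend and Benjamini-Hochberg adjustment over the 13754 genes that reached 1 CPM in 2 or more samples, in 52 comparisons. edgeR 4.0.16 on whole reads, as an alternative, called 121 genes for the mean Wnt3a and 1283 for the mean TGFβ response, against 68 and 671. The other alternatives were a pseudocount of 0.1, no filter, median-of-ratios scaling, a fit to the compared samples alone, a block for the replicate number, removal of the GC trend (lowess, span 0.3) and leaving out each sample in turn. The script was tested on simulated data. Tables were made with Python 3.11.15 and pandas 2.3.3. Named genes were the 4 members, up to 4 genes per list with the largest called mean response, Axin2 and the 3 genes most correlated with each member. A further gene of this rule is not reported here. The members, lists and the GC correction were chosen with earlier results of these data known. Cd3g and Cd8a, also listed as leukocyte markers, were not analysed here. Promoters came from RefSeq (GRCm38.p6), restricted to the 250 bases before each start.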

Additional observations from a re-analysis of the deposited data

Results flagged for a closer look

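The differences between responses that passed the test were flagged for passing it. The Wnt3a response of Tcf7 differed by -2.004 on the log2 scale between D164A/fl and fl/fl cells (limma adjusted p = 0.000346). It was not called when only the samples compared were fitted (limma adjusted p = 0.114). On average fl/fl cells went from 6.40 to 29.7 CPM and D164A/fl cells from 54.6 to 56.4 CPM. The TGFβ response of Tcf7l2 differed by -1.31 between D164A/- and fl/fl cells and by 1.24 between dm/- and dm/fl cells. Both lost the call with the GC trend removed (limma adjusted p = 0.142 and 0.0614) and when single libraries were left out. Mean Tcf7l2 levels without and with TGFβ were 35.2 and 31.5 CPM for D164A/-, 16.2 and 37.3 CPM for fl/fl, 14.3 and 54.3 CPM for dm/- and 25.1 and 39.8 CPM for dm/fl cells.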

How the results depend on the processing

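The number of members called depended on the fit. For the response to Wnt3a it was 0 of 28 when only the samples compared were fitted (3 in the report), where each fit holds 4 samples. For the mean Wnt3a response it was 0 with the GC trend removed and with the replicate block and the GC trend removed (1 in the report). For responses that differ from fl/fl it was 4 with only the samples compared, 4 with the GC trend removed and 8 with the block and the GC trend removed (2 in the report). For responses that differ between deleted and floxed lines it was 0 with the GC trend removed (1 in the report), and for untreated deleted against floxed lines 3 with only the samples compared (5 in the report). For the mean TGFβ response it was 1 with a pseudocount of 0.1. The cause was not tested for these changes. Here and for the counts below, the share of all genes called in the same fit is not given. These counts are therefore not a result about the members.

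The numbers of the samples do not mark a pairing in the labels. Treated and untreated samples with the same number deviated together in 12 of 14 sets (correlations of 0.33 to 0.93) and not in dm/fl cells with Wnt3a (-0.07) or ΔC/- cells with TGFβ (-0.20). With the replicate block, 7 members were called for responses that differ from fl/fl and 10 for the response to TGFβ (5 in the report), and 8 for the latter with the block and the GC trend removed. The values newly called for TGFβ with the block were Lef1 in D164A/fl, D164A/- and dm/fl cells (limma adjusted p = 0.0102, 0.0111 and 0.00952) and Tcf7l1 in D164A/fl and fl/fl cells (limma adjusted p = 0.0327 and 0.00661). Crossing the numbers, chosen after seeing the data, gave 7 and 10. Without the share of all genes called with the block, the rise from 5 to 10 cannot be read as particular to the members.

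Leaving out 1 sample in turn gave 0 to 1 members for the mean Wnt3a response, 1 to 4 for responses that differ from fl/fl, 0 to 2 for responses that differ between deleted and floxed lines and 0 to 1 for the mean TGFβ response. The Tcf7 mean for Wnt3a then lay between 0.97 and 1.06. It fell under the fold threshold without untreated replicate 2 or treated replicate 1 of fl/fl, untreated replicate 1 of D164A/-, untreated replicate 1 or treated replicate 2 of ΔC/fl, treated replicate 2 of ΔC/- or dm/-, or untreated replicate 2 of dm/fl cells. The Lef1 mean for TGFβ was called (1.00 to 1.07) without treated replicate 2 of D164A/-, ΔC/fl, dm/fl or dm/- cells, untreated replicate 1 of ΔC/fl or untreated replicate 2 of ΔC/- cells. The count of 4 for responses that differ from fl/fl and that of 2 for deleted against floxed lines arose without untreated replicate 2 of dm/fl cells in the Wnt3a experiment.

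Among the responses and the called values of the other comparisons, only values that were not called changed sign under these alternatives. With the GC trend removed, with or without the block, Tcf7l1 was at -0.55 for Wnt3a in fl/fl, -0.11 in ΔC/- and 0.13 in dm/fl cells, and for TGFβ at -0.029 in ΔC/- and 0.022 in dm/fl cells. With 1 sample left out, the Wnt3a values of Tcf7l1 ranged from -0.28 to 0.37 in fl/fl, -0.86 to 0.13 in D164A/fl, -0.60 to 0.10 in D164A/-, -0.58 to 0.090 in ΔC/fl, -1.64 to 0.40 in dm/fl, -0.79 to 1.08 in dm/- cells and from -0.29 to 0.0048 for the mean. Those of Lef1 ranged from -0.50 to 0.15 in ΔC/fl, -0.42 to 0.32 in dm/fl, -0.071 to 0.25 in dm/- cells, and that of Tcf7l2 from -0.20 to 0.36 in D164A/- cells. For TGFβ, Tcf7l1 ranged from -0.17 to 0.25 in ΔC/fl, Lef1 from -0.20 to 0.79 in dm/- and Tcf7l2 from -0.36 to 0.052 in D164A/- cells.

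Of 95 values of single members with edgeR on whole reads, 91 kept their direction and side of the thresholds, and with median-of-ratios scaling 94 did. These 95 values were the single and mean responses, without Lef1 in fl/fl cells, and the called values of the other comparisons. Values of the other comparisons that were not called were not counted here. With only 2 samples per condition, and with no Lef1 read in fl/fl and few in dm/- cells, the precision was limited.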
